A study of Mus musculus with 15 samples.

Results

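Transcripts of 10 circadian clock genes were followed in the trigeminal ganglion (TG), whose sensory neurons innervate the cornea: Arntl, Clock, Npas2, Per1, Per2, Per3, Cry1, Cry2, Dbp and Tef. They were chosen by name as members of the clock, with earlier results of these data known, and are 10 of the 55573 genes in the count table and 10 of the 16567 that passed a filter on low counts. The 15 samples came from male CD1 mice, an outbred stock, of 10 weeks of age, kept under a cycle of 12 h of light and 12 h of dark. Every mouse, vehicle controls included, had its right cornea injured. The injured eye received vehicle, the resolvin RvD6 (the standard) or its stereoisomer RvD6si (the isomer) 3 times a day for 12 days. The right TG was then taken, with 5 samples per group. No uninjured ganglia and no sample of a known clock time were analysed here, and the time of day of harvest is not given in the sources used here. The question behind the comparison was whether the groups differed in their clock transcripts, as ganglia taken at unlike hours would.

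The circadian clock is a feedback loop of transcription. The proteins of Arntl (BMAL1) and Clock, or its relative Npas2, bind E-box elements and switch on the Per and Cry genes, whose proteins return to block them. In a second arm the receptors of Nr1d1 and Nr1d2 (REV-ERB) repress Arntl through ROR elements, and the leucine zipper factors Dbp and Tef carry the rhythm to other genes through D-box elements. In most peripheral tissues Arntl transcripts peak at about the hours when Dbp and Per transcripts are low, so both sides of the loop are needed to read its state.

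The elements through which these factors act were looked up in RefSeq promoter windows (GRCm38.p6, 250 bases before to 50 after each annotated start). Windows were given for 9 of the 10 genes, 14 in all, and for Per2 there was no entry. An E-box (CACGTG) lay in the windows of Per1, Cry1 and Tef and in 7.15% of all 32851 windows. A D-box (TTANGTAA) occurred in Per3 alone of the 9 genes and in 2.32% of all windows, and a ROR element (TAGGTCA) in Arntl alone and in 2.61%. Both strands were searched, and no window held more than 1 kind of motif. For each of these genes a stretch is printed below from 5′ to 3′ on the strand of the gene, with the motif in capitals. The stretches show which arm of the loop has its letters in which gene. The Per1 stretch is chr11:69098771-69098800 on the plus strand, with the E-box starting 166 bases before the start site. The Cry1 stretch is chr10:85185097-85185126 on the minus strand, 60 bases before the start. The Tef stretch is chr15:81802534-81802563 on the plus strand, 127 bases before a RefSeq start and inside an annotated GENCODE exon. Another Tef window also held an E-box, 138 bases before its own start, which is not printed. The Arntl stretch is chr7:113207529-113207558 on the plus strand, in an exon 30 bases past one of its starts. The Per3 stretch is the 250 bases before the start, chr4:151044666-151044915 on the minus strand, and overlaps no annotated exon. Its 2 D-boxes start 205 and 158 bases upstream. A match is a description of the letters and not evidence of binding in these ganglia.
Per1: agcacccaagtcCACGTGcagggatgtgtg
Cry1: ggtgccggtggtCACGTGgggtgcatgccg
Tef: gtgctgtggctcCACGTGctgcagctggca
Arntl: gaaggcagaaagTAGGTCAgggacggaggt
Per3: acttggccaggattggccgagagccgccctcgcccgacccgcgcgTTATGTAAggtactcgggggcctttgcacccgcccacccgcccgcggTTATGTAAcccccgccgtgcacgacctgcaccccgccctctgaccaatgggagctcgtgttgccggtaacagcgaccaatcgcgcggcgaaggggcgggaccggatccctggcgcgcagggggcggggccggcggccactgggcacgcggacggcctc

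Counts on genes ranged from 4125962 to 9903396 per sample, with medians of 9147139 in vehicle, 7235362 in RvD6 and 6862705 in RvD6si, so the precision of weakly expressed genes differed between groups. Markers of sensory neurons, satellite glia and myelinating Schwann cells were detected in every sample. Markers of other tissues varied between groups. The summed level of 8 skeletal muscle genes was 17.5 to 153 CPM (counts scaled to library size, with TMM normalization) in vehicle, 90.9 to 3020 in RvD6 and 8.61 to 32.5 in RvD6si. The 8 bone marrow precursor genes summed to 95.3 to 548, 586 to 2020 and 39.6 to 1250 CPM, and the 6 erythroid genes to 2380 to 5060, 5740 to 10600 and 936 to 12000 CPM. For 5 pituitary genes, 1 of them at 0 in every sample of each group, the sums were 8.66 to 3740, 224 to 2300 and 19.8 to 657 CPM. All 8 muscle, 8 marrow precursor and 6 erythroid genes were detected in at least 1 sample. The highest marrow and erythroid values of the RvD6si group both came from RvD6si replicate 15, also the shallowest library. Sensory neuron markers summed to 7640 to 8580 CPM in vehicle, 3770 to 7380 in RvD6 and 6210 to 8060 in RvD6si, with the lowest value in RvD6 replicate 9. Satellite glia markers summed to 9200 to 11100 CPM in vehicle, 7140 to 8890 in RvD6 and 6750 to 10000 in RvD6si. For both lists all RvD6 samples lay below all vehicle samples. In whole ganglia, fewer cells of a type and less RNA per cell cannot be told apart. The part of these tissues in the clock gene values is given below only as far as fits with a marker score or without a library bear on it, and was otherwise not tested. The marrow precursor sums of all RvD6 samples lay above those of all vehicle samples, and the muscle sums of most did. For RvD6 against vehicle, a fit with either score therefore cannot tell tissue content and treatment apart. The muscle sums of all RvD6si samples lay below those of all RvD6 samples, and so did the marrow precursor sums except in RvD6si replicate 15. The same limit therefore holds between RvD6si and RvD6.

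Per length of transcript, Cry2 was the most abundant of the 10 genes, at 13.5 ± 1.72 RPKM (CPM divided by the exonic length in kilobases, mean ± SD over 15 samples). Tef, at 6.38 ± 1.82 RPKM, and Clock, at 3.43 ± 1.10 RPKM, came next. Cry1 (2.25 ± 0.908 RPKM), Per3 (2.13 ± 0.898), Arntl (1.43 ± 0.39) and Per1 (1.2 ± 0.431) followed. Dbp (0.829 ± 0.409 RPKM) and Per2 (0.722 ± 0.319) were lower still, and Npas2 was lowest at 0.232 ± 0.245. The ranges of mean ± SD of Cry2, Tef and Clock did not overlap, whereas from Clock downwards those of each pair of neighbours did. In counts, Npas2 had 0 to 36 reads per sample, with 0 in 3 samples, and Dbp had 4 to 40. These 2 genes were therefore measured with wide intervals. Cry2, with 281 to 916 reads, was the steadiest: its within-group SD was 0.20 on the log2 CPM scale, and 4.03% of the genes tested had a smaller one. For Dbp the SD was 0.77 (75.2% of genes were smaller) and for Npas2 1.40 (94.4%). Dbp shares 18.01% of its exonic bases with Sphk2 on the opposite strand, where reads were not counted, so its level is less certain. The shared part was 4.67% for Cry2, 2.45% for Tef and 0.44% for Arntl, and 0 for the other 6 genes.

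**Figure D1:**
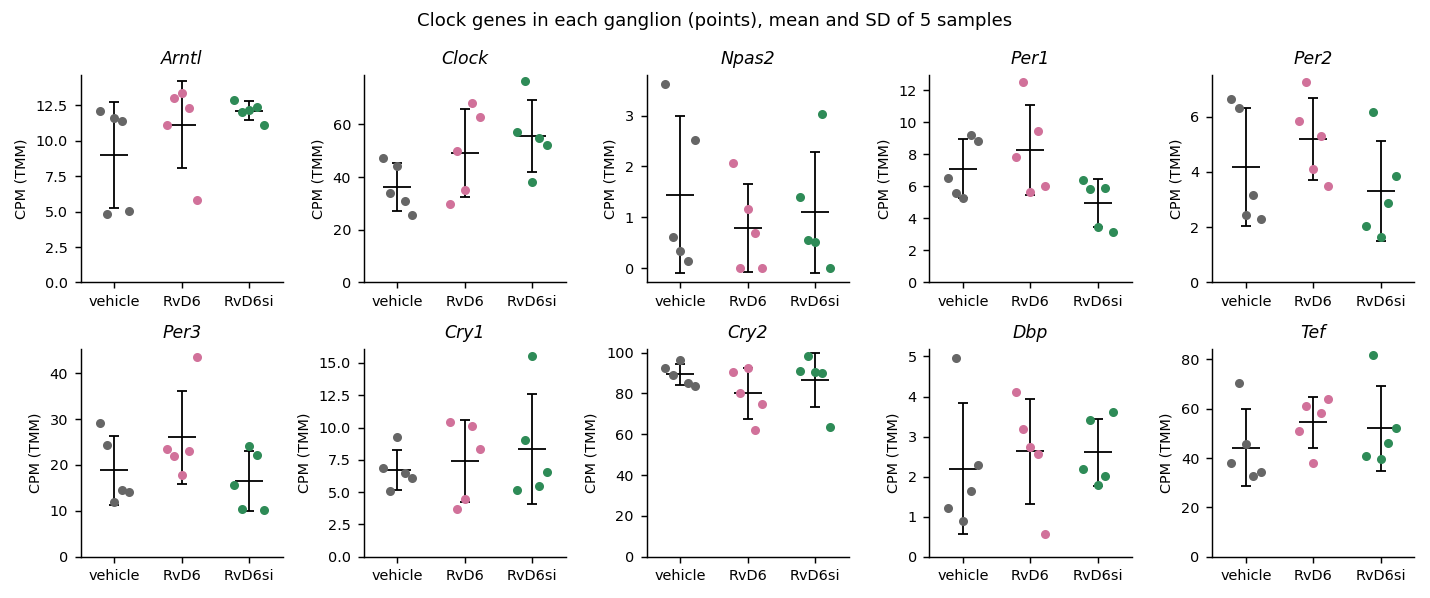
CPM (TMM-normalized, linear axis) of the 10 clock genes in each of the 15 ganglia, by group; points are samples, horizontal bars the mean and whiskers the SD of 5 samples. In every panel the groups overlap, and 3 samples lie near 5 CPM of Arntl while the other 12 lie at 11.1 CPM or above.

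None of the 10 clock genes passed the test in any of the 3 comparisons, and in no comparison did all samples of one group lie apart from all samples of the other for any of them. The test was the quasi-likelihood test of edgeR with Benjamini-Hochberg adjustment over 16567 genes. For RvD6si against vehicle it called 0.670% of all genes, for RvD6 against vehicle 0%, and for RvD6si against RvD6 0.235%. At an unadjusted p below 0.05, 1 of the 10 differed between RvD6si and vehicle (Clock), 0 between RvD6 and vehicle, and 1 between RvD6si and RvD6 (Per1). Among all genes these shares were 16%, 13.6% and 8.82%. Groups without overlap were seen for 4.91%, 3.77% and 1.81% of all genes. DESeq2 also called 0 of the 10 in each comparison, but gave an adjusted p to only 6 of them for RvD6si against vehicle. Of all genes with an adjusted p it called 8.13%, 1.92% and 0.936%. Both comparisons with vehicle use the same 5 vehicle samples, so their values are not independent. The median log2 fold change of the 10 genes was 0.10 for RvD6si against vehicle, 0.28 for RvD6 against vehicle and 0.05 for RvD6si against RvD6. The medians of all genes tested were 0.02, 0.02 and 0.

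**Figure D2:**
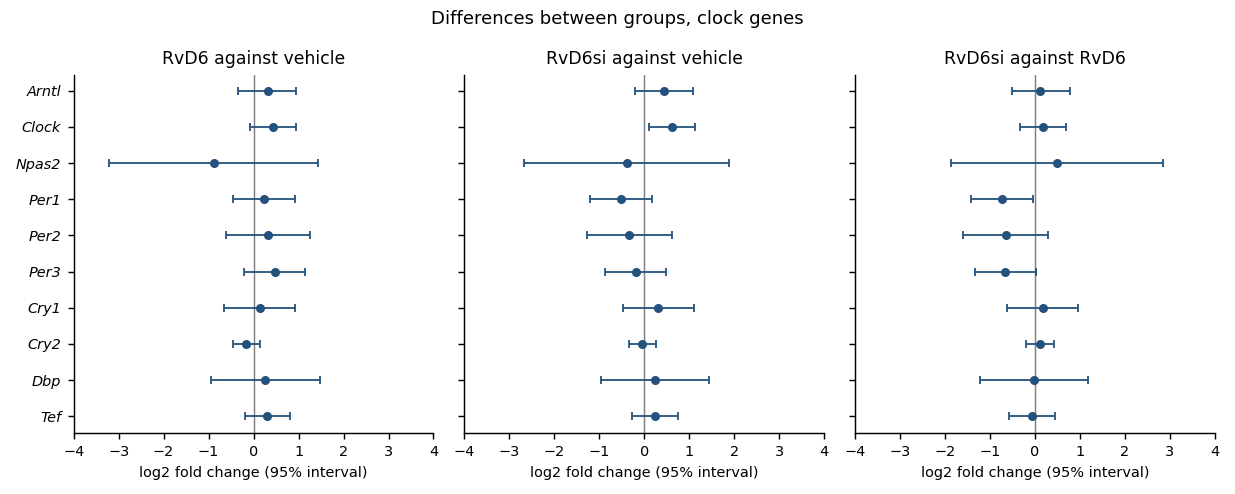
log2 fold change (horizontal axis, edgeR) of each clock gene in the 3 comparisons; points are estimates and bars 95% intervals, unadjusted. The interval excludes 0 only for Clock in RvD6si against vehicle (0.10 to 1.13) and Per1 in RvD6si against RvD6 (-1.43 to -0.04), and it is widest for Npas2.

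The activating arm came first. Clock, the partner of BMAL1, measured 47.4, 34, 44.1, 30.9 and 25.6 CPM in the vehicle samples. It measured 29.6, 50, 35.1, 68 and 62.7 CPM in RvD6 and 57.2, 76.4, 38.2, 54.8 and 52.1 CPM in RvD6si. Of the RvD6si samples, 4 of 5 lay above the highest vehicle sample, and the remaining one lay inside the vehicle range. The log2 fold change of Clock for RvD6si against vehicle was 0.61 (SE 0.25, 95% interval 0.10 to 1.13), with an adjusted p of 0.221 in edgeR's test (unadjusted, 0.0221). For RvD6 against vehicle it was 0.43 (interval -0.09 to 0.94, adjusted p = 0.462 in edgeR's test), with 3 of 5 samples above all vehicle samples, and 0.28 without RvD6 replicate 9. The lipids themselves differed by 0.18 (interval -0.33 to 0.70). The RvD6si value was 0.59 with the muscle or the marrow precursor score as covariate and 0.64 without RvD6si replicate 15. With any 1 sample left out it ranged from 0.47 to 0.72, with adjusted p from 0.164 to 0.402 in edgeR's test.

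Arntl, which encodes BMAL1, the indispensable partner of the pair, had an uneven spread. Vehicle samples measured 12.1, 4.84, 11.6, 11.4 and 5.05 CPM. RvD6 samples measured 11.1, 13, 13.4, 12.3 and 5.85 CPM, and RvD6si samples 12.9, 12, 12.2, 12.4 and 11.1 CPM. Vehicle replicates 2 and 5 and RvD6 replicate 10 thus lay well below the other 12 samples. On the log2 CPM scale these 3 reached at most 2.61, and the other 12 lay between 3.5 and 3.78, with an SD of 0.09 against a counting error of 0.15 for their median count. Arntl had a log2 fold change of 0.43 for RvD6si against vehicle (SE 0.31, interval -0.21 to 1.08) and 0.31 for RvD6 against vehicle (interval -0.34 to 0.95). Without vehicle replicate 2 these values of Arntl were 0.27 and 0.15, and the RvD6 value was also 0.15 without vehicle replicate 5 and 0.47 without RvD6 replicate 10. RvD6si and RvD6 differed by 0.12 (interval -0.52 to 0.77), and by -0.04 without RvD6 replicate 10.

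Npas2, which can replace Clock in the pair, was close to the limit of the counts. It had 1 to 36 reads in vehicle, 0 to 19 in RvD6 and 0 to 21 in RvD6si. The log2 fold change was -0.39 (SE 1.09) for RvD6si and -0.89 (SE 1.11) for RvD6 against vehicle, and 0.50 (SE 1.12) between the lipids, with intervals that reached from -3.22 to 2.85. No change of Npas2 was detectable with these counts and this spread between samples, with a biological coefficient of variation (the spread beyond counting error) of 1.12.

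On the repressing arm, the 3 Per genes had their lowest group means in RvD6si and their highest in RvD6. Per1, an early responder to light, hormones and activity as well as to the clock, measured 6.54, 5.59, 5.24, 9.21 and 8.83 CPM in vehicle. It measured 7.81, 12.5, 5.65, 9.43 and 5.99 CPM in RvD6 and 6.39, 5.83, 3.46, 5.92 and 3.17 CPM in RvD6si. The lipid groups overlapped, with RvD6si replicates 13 and 15 below all RvD6 and all vehicle samples. Between RvD6si and RvD6 the log2 fold change of Per1 was -0.74 (SE 0.33, interval -1.43 to -0.04), with an adjusted p of 0.528 in edgeR's test (unadjusted, 0.0388). Against vehicle it was -0.51 (interval -1.2 to 0.18) for RvD6si and 0.23 (interval -0.46 to 0.91) for RvD6, the latter 0.03 without RvD6 replicate 7. Without RvD6si replicate 15 the difference between the lipids was -0.62, and with any 1 sample left out it ranged from -0.84 to -0.54.

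Per2, the repressor most closely tied to the core loop, was measured from few reads, 13 to 66 per sample. Vehicle samples had 6.64, 6.33, 2.45, 3.16 and 2.29 CPM, RvD6 samples 5.86, 7.24, 4.09, 5.31 and 3.48 CPM, and RvD6si samples 2.03, 6.16, 1.66, 2.89 and 3.85 CPM. The vehicle samples alone ran from 2.29 to 6.64 CPM, within 1.66 to 7.24 CPM over all samples, and 3 of 5 RvD6si samples lay below all RvD6 samples. Between RvD6si and RvD6 Per2 had a log2 fold change of -0.65 (SE 0.45, interval -1.60 to 0.30, adjusted p = 0.736 in edgeR's test). It was -0.33 (interval -1.28 to 0.62) for RvD6si and 0.32 (interval -0.62 to 1.25) for RvD6 against vehicle. With 1 sample left out these values of Per2 ranged from -0.69 (without RvD6si replicate 12) to -0.10 (without vehicle replicate 1) and from 0.16 (without vehicle replicate 5) to 0.55 (without vehicle replicate 1), and that between the lipids reached -1.01 without RvD6si replicate 12.

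Per3, whose promoter holds the pair of D-boxes printed above, measured 29.1, 24.3, 12, 14.6 and 14.1 CPM in vehicle. It measured 23.5, 22, 17.9, 23 and 43.6 CPM in RvD6 and 15.6, 10.3, 24.1, 22.1 and 10.2 CPM in RvD6si. RvD6 replicate 10 was the highest of all 15 samples, and 3 of 5 RvD6si samples lay below all RvD6 samples. For RvD6si against RvD6 the log2 fold change of Per3 was -0.66 (SE 0.32, interval -1.33 to 0.02), with an adjusted p of 0.578 in edgeR's test (unadjusted, 0.0561). Without RvD6 replicate 10 it was -0.39, and for RvD6 against vehicle the value went from 0.47 to 0.20. RvD6si and vehicle differed by -0.19 (interval -0.87 to 0.48).

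The cryptochromes hold BMAL1 and CLOCK inactive together with the PER proteins. Cry2 measured 83.8 to 96.3 CPM in vehicle, 62.0 to 92.6 in RvD6 and 63.7 to 98.4 in RvD6si. RvD6si replicate 15 was the low sample of its group, with the other 4 at 89.9 CPM or above. Cry2 had a log2 fold change of -0.04 (SE 0.14, interval -0.35 to 0.26) for RvD6si and -0.16 (SE 0.14, interval -0.46 to 0.14) for RvD6 against vehicle. Between the lipids it was 0.12 (interval -0.19 to 0.42). These were the narrowest intervals of the 10 genes. Cry1 measured 5.09 to 9.25 CPM in vehicle, 3.68 to 10.4 in RvD6 and 5.14 to 15.5 in RvD6si. Its log2 fold change was 0.31 (SE 0.37) for RvD6si and 0.14 (SE 0.38) for RvD6 against vehicle, and 0.17 (SE 0.38) between the lipids. The RvD6si value for Cry1 rested on replicate 13, the highest sample, and was -0.05 without it.

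Dbp, in many tissues among the transcripts with the widest daily swing, had 1.21, 4.97, 0.892, 1.65 and 2.29 CPM in vehicle. It had 4.12, 3.19, 2.73, 2.57 and 0.557 CPM in RvD6 and 2.18, 3.41, 1.79, 2.02 and 3.62 CPM in RvD6si. The highest sample was vehicle replicate 2 and the lowest RvD6 replicate 10, both among the 3 samples low in Arntl. Dbp had a log2 fold change of 0.24 (SE 0.58, interval -0.97 to 1.45) for RvD6si and 0.26 (SE 0.58, interval -0.94 to 1.47) for RvD6 against vehicle. Between the lipids it was -0.02 (interval -1.23 to 1.19). Without vehicle replicate 2 the values of Dbp against vehicle were 0.78 for RvD6si and 0.80 for RvD6, and the lowest with 1 sample left out were 0.05 (without vehicle replicate 3) and 0.04 (without RvD6 replicate 6). Tef, its relative, measured 32.6 to 70.6 CPM in vehicle, 38.0 to 64.0 in RvD6 and 39.7 to 81.6 in RvD6si. The groups of Tef overlapped, and its log2 fold change was 0.24 (SE 0.24, interval -0.27 to 0.74) for RvD6si and 0.30 (SE 0.24, interval -0.20 to 0.81) for RvD6 against vehicle. The RvD6si value of Tef ranged from 0.02 without RvD6si replicate 12 to 0.46 without vehicle replicate 2, and the RvD6 value was 0.53 without the latter. The lipids differed by -0.06 in Tef (interval -0.57 to 0.44).

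The balance of the output arm against the activating arm within a ganglion was also taken, as log2 CPM of Dbp minus that of Arntl. It was -3.07, 0.03, -3.36, -2.61 and -1.05 in the vehicle samples, -1.37, -1.94, -2.20, -2.15 and -2.89 in RvD6 and -2.43, -1.74, -2.59, -2.47 and -1.55 in RvD6si. In Dbp minus Arntl the vehicle samples spanned the ranges of both lipid groups. Per1 minus Arntl was -0.86, 0.20, -1.11, -0.30 and 0.78 in vehicle, -0.49, -0.05, -1.21, -0.38 and 0.03 in RvD6 and -0.99, -1.01, -1.74, -1.04 and -1.73 in RvD6si. In each of the vehicle and RvD6 groups 4 of 5 samples lay above all RvD6si samples, the 3 samples low in Arntl among them. Per3 minus Arntl was 0.05 to 2.27 in vehicle, 0.41 to 2.84 in RvD6 and -0.21 to 0.97 in RvD6si, with the highest value of vehicle and of RvD6 in samples low in Arntl. These differences are given as values, with no test. Since Arntl fell into 3 low and 12 tightly placed samples, no correlation of Arntl with the other clock genes over all 15 is given. The 3 low samples did not share a direction in Dbp or Per3. Dbp was highest of all in vehicle replicate 2 and lowest of all in RvD6 replicate 10, where Per3 was highest. That lowest Dbp value was 4 reads, and Dbp in vehicle replicate 5 (2.29 CPM) was below only replicate 2 of its group. Among vehicle samples, Nr1d1 (28.6 and 17 CPM) and Nr1d2 (46.2 and 42.2) were highest in replicates 2 and 5. In RvD6 replicate 10, Nr1d2 (70.2 CPM) was below only replicate 9 of its group, while Nr1d1 (42 CPM) was above only replicate 8. These patterns were not tested.

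**Figure D3:**
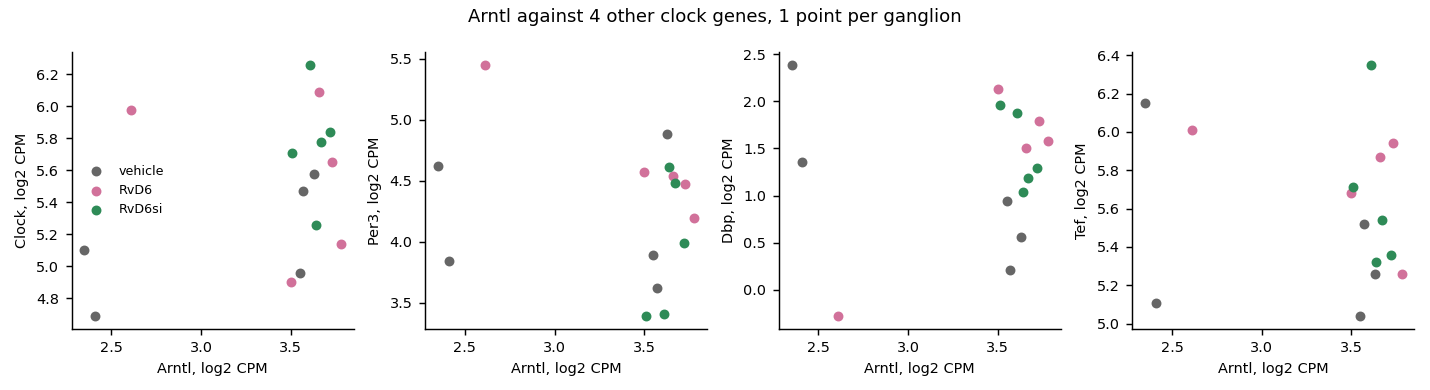
log2 CPM of Arntl (horizontal axis) against that of Clock, Per3, Dbp and Tef (vertical axes), with 1 point per ganglion coloured by group. In each panel 12 points stand in a column between 3.5 and 3.78 of Arntl and 3 lie to the left at 2.61 or below.

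The genes whose pattern was most like that of Arntl within groups (Pearson r of group-centred log2 CPM over 15 samples) were Mex3d (0.872), P2rx4 (0.857), Syde2 (0.79), Smr2 (0.783) and Ccdc40 (0.783). These values serve only to order the genes, and they draw on the 3 low samples: without them they were 0.439 to 0.697 over 12 samples. For Dbp the nearest were Anapc15-ps (0.881), Tmem266 (0.852), Syt4 (0.791), Rdh13 (0.787) and Celsr3 (0.781). Without the 3 samples farthest from the median of Dbp they had r values of 0.447 to 0.787. None of these 10 nearest genes is a clock gene, and they are the top of 16567 values that share the same libraries.

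A further 22 genes of the clock and its accessory factors were counted, and 20 were tested (all but Rorb and Arntl2, which had too few counts). For RvD6si against vehicle 0 of the 20 passed the test of edgeR, where 0.670% of all genes passed, while DESeq2 called 3 higher of the 16 to which it gave an adjusted p, beside 4.82% of all genes. At an unadjusted p below 0.05 in edgeR, 5 were higher and 1 lower (8.69% and 7.30% of all genes), and 2 were higher without overlap (2.45%). For RvD6 against vehicle 0 passed in edgeR, with 6 higher and 0 lower at an unadjusted p below 0.05 (7.63% and 5.99% of all genes) and 2 higher without overlap (2.15%), while DESeq2 called 1 higher, beside 1.44% of all genes. Between RvD6si and RvD6 0 passed in edgeR and in DESeq2, with 1 higher and 2 lower at an unadjusted p below 0.05 (4.18% and 4.64% of all genes) and 0 higher without overlap (0.712%). The median log2 fold change of the 20 was 0.36, 0.32 and 0.10 in the 3 comparisons, beside 0.02, 0.02 and 0 for all genes.

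Of the receptors that repress Arntl, Nr1d1 (REV-ERBα) measured 11.7, 28.6, 14.7, 9.35 and 17 CPM in vehicle. It measured 43.8, 44.9, 28.8, 55.4 and 42 CPM in RvD6 and 35.7, 20, 24.2, 24.7 and 26.1 CPM in RvD6si. All RvD6 samples lay above all vehicle samples, although RvD6 replicate 8 was barely above vehicle replicate 2. The log2 fold change of Nr1d1 for RvD6 against vehicle was 1.40 (SE 0.27, interval 0.84 to 1.97), with an adjusted p of 0.0967 in edgeR's test (unadjusted, 5.7e-05). DESeq2 gave an adjusted p of 0.000358 for it. In edgeR 2 of the 15 fits without 1 sample made the call, without vehicle replicate 2 (adjusted p = 0.0436) or without RvD6si replicate 15 (0.0425). Over those 15 fits the adjusted p of Nr1d1 in edgeR's test ranged up to 0.223. For RvD6si against vehicle the change was 0.68 (adjusted p = 0.213 in edgeR's test) and between the lipids -0.72 (interval -1.28 to -0.16, adjusted p = 0.402 in edgeR's test). With the marker score of marrow precursors as covariate the RvD6 value of Nr1d1 was 1.57 (adjusted p = 0.312), and with that of muscle 1.67 (adjusted p = 0.297). Since both kinds of marker were mostly higher in RvD6 than in vehicle, these fits cannot tell tissue content and treatment apart. Nr1d1 shares 8.55% of its exonic bases with Thra on the opposite strand, where reads were not counted. Nr1d2 (REV-ERBβ), its relative, measured 20.2 to 46.2 CPM in vehicle, 29.7 to 136 in RvD6 and 27.4 to 73.1 in RvD6si. Its change for RvD6 against vehicle was 0.90 (interval 0.15 to 1.64, adjusted p = 0.286 in edgeR's test), and 0.45 without RvD6 replicate 9, the highest sample.

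Hlf, a leucine zipper factor of the same family as Dbp and Tef, had 5.34, 4.97, 1.11, 3.57 and 8.60 CPM in vehicle. It had 5.97, 11.9, 3.70, 12.7 and 13.1 CPM in RvD6 and 2.49, 5.28, 2.82, 2.46 and 5.21 CPM in RvD6si. In RvD6, 3 of 5 samples lay above all vehicle samples. Hlf had a log2 fold change of -1.38 (SE 0.48, interval -2.40 to -0.36) for RvD6si against RvD6, with an adjusted p of 0.375 in edgeR's test (unadjusted, 0.0106). It was 1.01 (interval 0.01 to 2.00) for RvD6 and -0.38 (interval -1.39 to 0.64) for RvD6si against vehicle, the latter -0.04 without vehicle replicate 5. Nfil3, which represses from the same D-box elements, had a log2 fold change of -0.97 (interval -1.90 to -0.04, adjusted p = 0.295 in edgeR's test) for RvD6si against vehicle. The value for Ciart, a repressor of the CLOCK pair, was 0.77 (interval -0.33 to 1.86) in the same comparison, and 0.31 without RvD6si replicate 14.

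Bhlhe40 (DEC1), which competes for E-boxes, measured 3.11 to 7.70 CPM in vehicle, 4.48 to 19.5 in RvD6 and 9.73 to 20.4 in RvD6si. All RvD6si samples lay above all vehicle samples. For RvD6si against vehicle the log2 fold change of Bhlhe40 was 1.52 (SE 0.37, interval 0.75 to 2.30, adjusted p = 0.0631 in edgeR's test). DESeq2 called it, with an adjusted p of 0.0028, as did edgeR without RvD6 replicate 8 (0.0463) or 9 (0.0384). Of the 15 edgeR fits without 1 sample only these 2 made the call. Over all 15 the adjusted p of Bhlhe40 ranged up to 0.156. Bhlhe40 was also higher in RvD6 than in vehicle, by 1.05 (interval 0.28 to 1.81, adjusted p = 0.225 in edgeR's test). In RvD6, 3 of 5 samples lay above all vehicle samples. The lipids differed by 0.48 in Bhlhe40 (interval -0.28 to 1.23). Cipc, a CLOCK-interacting repressor, measured 45.0 to 56.0 CPM in vehicle and 63.4 to 94.2 in RvD6si, again without overlap. Its log2 fold change was 0.66 (SE 0.18, interval 0.28 to 1.05, adjusted p = 0.0891 in edgeR's test), and the adjusted p in DESeq2 was 0.0125. For RvD6 against vehicle Cipc had 0.50 (interval 0.12 to 0.89, adjusted p = 0.251 in edgeR's test), with 4 of 5 samples above all vehicle samples. The lipids differed by 0.16 in Cipc (interval -0.23 to 0.54). Noct, a clock-controlled phosphatase, had values of 13.3 to 18.8 CPM in vehicle and 17.4 to 32.1 in RvD6si. Its log2 fold change was 0.69 (SE 0.20, adjusted p = 0.0968 in edgeR's test), and the adjusted p in DESeq2 was 0.0112. For RvD6 against vehicle Noct had 0.25 (interval -0.16 to 0.67), and the lipids differed by 0.43 (interval 0.02 to 0.85, adjusted p = 0.53 in edgeR's test). Usp2, a deubiquitinase, had a log2 fold change of 0.73 (adjusted p = 0.303 in edgeR's test) for RvD6 against vehicle with 5 of 5 samples above. Fbxw11, a subunit of the ligase that degrades PER proteins, had one of 0.55 (adjusted p = 0.168 in edgeR's test) for RvD6si against vehicle.

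**Figure D4:**
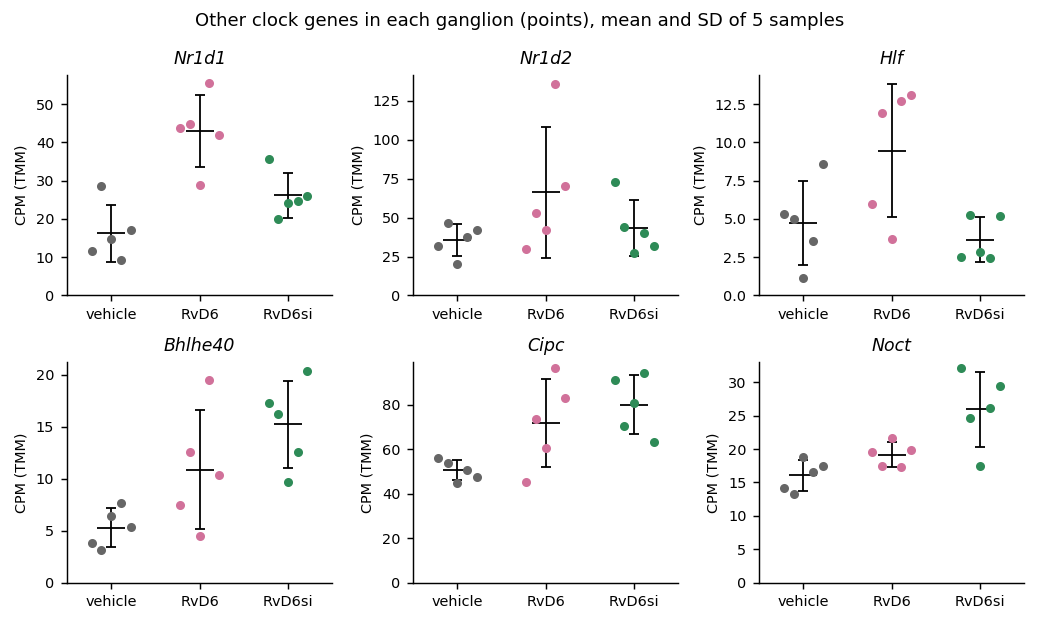
CPM (TMM-normalized, linear axis) of 6 further clock genes in each ganglion, by group; points are samples, horizontal bars the mean and whiskers the SD of 5 samples. All RvD6 samples lie above all vehicle samples for Nr1d1, and all RvD6si samples do so for Bhlhe40 and Cipc. Of the RvD6 samples, 3 of 5 do so for Bhlhe40 and 4 of 5 for Cipc.

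**Figure D5:**
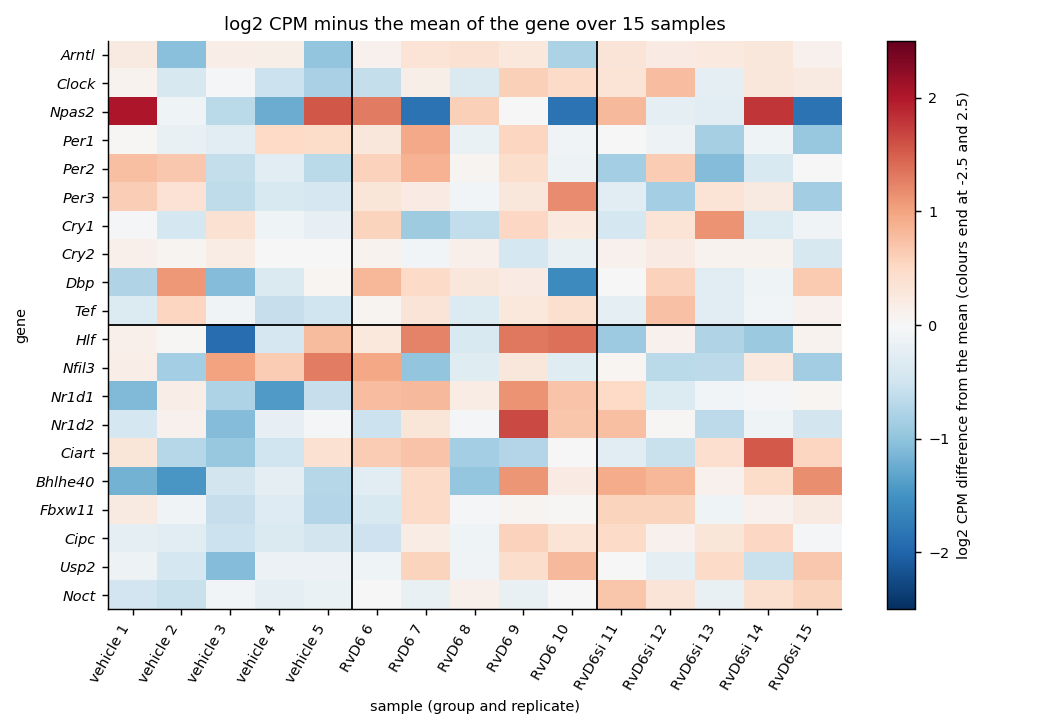
log2 CPM minus the mean of the gene over 15 samples, for the 10 clock genes (above the horizontal line) and 10 further clock genes (below it); columns are samples and vertical lines part the groups. In the upper rows each group holds samples above and below the mean, except that Arntl is above it in all RvD6si samples and Per1 at or below it in all of them. In the lower rows Cipc, Bhlhe40, Noct and Usp2 are below their mean in all vehicle samples. Nr1d1 is above its mean in all RvD6 samples and Bhlhe40 in all RvD6si samples.

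Per1 and several of these genes also answer to glucocorticoids and to neuronal activity, so both kinds of target were counted. Of 10 glucocorticoid targets (such as Fkbp5, Tsc22d3 and Zbtb16), 0 passed edgeR's test in any comparison. At an unadjusted p below 0.05, 1 was higher and 2 lower for RvD6si against vehicle, 1 higher for RvD6 against vehicle, and 0 differed between the lipids. Among all genes, 8.69% were higher and 7.30% lower in the first comparison, 7.63% and 5.99% in the second, and 4.18% and 4.64% in the third. DESeq2 called 1 of the 7 to which it gave an adjusted p, Errfi1, higher for RvD6si against vehicle (4.82% of all genes), and 0 in the other 2 comparisons. Of 12 immediate early genes 11 were tested, and 0 passed edgeR's test in any comparison. DESeq2 called 2 of the 9 to which it gave an adjusted p, Junb and Egr1, higher for RvD6si against vehicle (4.82% of all genes). It called 0 in the other 2 comparisons. Junb and Egr1, with Errfi1, are named after their values were seen. At an unadjusted p below 0.05, 4 immediate early genes were higher and 1 lower for RvD6si against vehicle (8.69% and 7.30% of all genes). For RvD6 against vehicle 2 were higher (7.63% of all genes), and for RvD6si against RvD6 2 were higher (4.18%). Their median log2 fold changes were 0.49, -0.01 and 0.27, and those of the glucocorticoid targets -0.15, -0.21 and 0.08. The part of either kind of signal in the Per1 values was not tested.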

How the data were processed

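RNA of 15 TG was sequenced by an adapted Smart-seq2 protocol, which does not keep the strand. Per the methods and the file header, the authors aligned reads with Rsubread to GRCm38 with the GENCODE M22 annotation and counted them on exons with featureCounts. The deposited values are raw counts, not normalized. Reads on several places or genes were not counted. Symbols came from GENCODE M21, which matched 99.7% of identifiers. Counts were tested with edgeR 4.0.16 in R 4.3.3 (quasi-likelihood, 3 groups in 1 fit, TMM, its filter at a minimum count of 10, Benjamini-Hochberg, threshold 0.05). CPM used TMM factors, log2 CPM a prior count of 2, RPKM the exonic length in the table, and normalized counts the size factors of DESeq2 1.42.0. Replicates are separate samples by their labels, and p-values measure the spread between them. The chi-square per degree of freedom between samples of a group was 11.3 to 49.2, so none was a copy. The steps were tested on simulated data.

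The clock genes and all lists were chosen with earlier results of these data known. Further clock genes are named where the unadjusted p was below 0.05 in a comparison, or as core loop genes (Nr1d1, Nr1d2, Ciart, Nfil3, Hlf). Alternatives were DESeq2, 2-group fits, RLE normalization, 2 other filters, removal of a length trend, a muscle score as covariate and each sample left out; a marrow precursor score was added after the marker levels had been seen. The columns were all matched to a sample. Reads were not realigned, and 1 gene of the list of further clock genes is not reported here.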

Additional observations from a re-analysis of the deposited data

Results flagged for a closer look

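In 60 groups of 5 samples (20 genes in 3 groups), 2 held a sample set apart from the other 4 by more than the critical value of Dixon's gap test, 0.71 of the range. Chance alone gives about 5% of groups. Per3 in RvD6 replicate 10 had 315 normalized counts, where the nearest sample of its group had 170, a gap of 0.78 of the range. Without that sample the log2 fold change of Per3 for RvD6si against RvD6 went from -0.66 to -0.39. Cry2 in RvD6si replicate 15 had 457 normalized counts, where the nearest had 644, a gap of 0.725 of the range. That library was also the shallowest and the highest of its group in marrow precursor and erythroid markers, and the part of these in the Cry2 value was not tested.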

How the results depend on the processing

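No paired analysis was possible because the groups share no replicate number. The count of the 10 clock genes past the threshold was 0 in each comparison under all 24 alternatives, 15 of them fits without 1 sample, and the lowest adjusted p was 0.0675 (Clock, RvD6si against vehicle, DESeq2 with the 2 groups compared). The planned correlations of Arntl are not given, since its values fell into 2 separate sets of samples.

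For RvD6si against vehicle the count of other clock genes past the threshold, 0 in the main test, was 3 in DESeq2 with all samples (Bhlhe40, Cipc and Noct), 3 in DESeq2 with 2 groups, 1 in edgeR with 2 groups, 1 with at least 10 counts in every sample, and 0 to 1 with 1 sample left out. For RvD6 against vehicle it was 0 in the main test, 1 in DESeq2 with all samples (Nr1d1), 1 with 2 groups, 1 without a filter, 1 with at least 10 counts in every sample, and 0 to 1 with 1 sample left out. The cause of these differences was not tested.

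Of 60 log2 fold changes, 18 changed sign under at least 1 alternative. None of the 60 had passed the threshold in the main test. With the muscle score as covariate, Npas2 became 0.12 for RvD6si and Cry1 -0.36 for RvD6 against vehicle, and between RvD6si and RvD6 Nfil3 became 0.11, Nr1d2 0.25 and Ciart -0.63. With the marrow precursor score, Npas2 became 3.17 and Cry2 0.03 for RvD6 against vehicle. Between the lipids Npas2 became -4.09, Cry1 -0.16, Cry2 -0.12, Cipc -0.06 and Usp2 0.11 with that score. For RvD6 against vehicle and between the lipids, fits with either score cannot tell tissue content and treatment apart. With 1 sample left out, RvD6si against vehicle ranged from -1.2 to 0.28 for Npas2, -0.37 to 0.02 for Per3, -0.05 to 0.46 for Cry1 and -0.09 to 0.05 for Cry2, and RvD6 against vehicle from -0.03 to 0.31 for Cry1. Between the lipids the ranges were -0.04 to 0.21 for Arntl, -0.31 to 1.36 for Npas2, -0.18 to 0.34 for Cry1, -0.28 to 0.21 for Dbp, -0.29 to 0.02 for Tef and -0.02 to 0.66 for Ciart. The causes were not tested. Npas2, Dbp and Per2 had the lowest counts, with medians of 5, 14 and 23, and the largest biological coefficients of variation, 1.12, 0.588 and 0.481. The parts of depth and of spread between ganglia in their intervals were not tested.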
